A study of Mus musculus with 8 samples.

Results

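The genes described here are 9 transcription factor genes that pattern the midbrain and the hindbrain of the mouse embryo: En1, En2, Pax2, Pax5, Pax8, Gbx2, Lmx1b, Egr2 and Irx3. They were chosen by name, and every non-control probe of the array that carries one of these gene names was taken, which gave 13 of 55681 probes and 9 of 36163 gene names. Their RNA was followed in mouse embryonic stem cells of the E14Tg2A line (strain 129/Ola) that were turned into neural cells in culture. The 4 stages were ES cells kept with LIF and serum (0 days in vitro, DIV), epiblast-like aggregates (ELA) floating for 2 days in a chemically defined medium with N2 and B27, neural progenitor cells (NPC) grown as an adherent layer on poly-ornithine and laminin until 6 DIV, and neural precursors (NPC/Neu) at 10 DIV, of which the last 4 days were without B27. At each stage 1 array was hybridized with total RNA and 1 array with Ago-RNA, the RNA that came down with the Argonaute proteins from the cytosolic fraction with the anti-pan Ago antibody 2A8. The labels give no genetic change or added compound for any group, all groups descend from this single cell line, and per the labels the RNA on an array was a pool of 3 independent experiments, so the spread between cultures was not measured on any of the 8 arrays.

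The boundary between midbrain and hindbrain, the isthmus, forms where Otx2 in the rostral neural plate meets Gbx2 in the caudal neural plate, and the cells there act as a signaling center through Fgf8 and Wnt1. Pax2, Pax5, Pax8, En1, En2 and Lmx1b are transcription factors that set up or maintain this center and the territories on either side of it. Egr2, also called Krox20, defines odd-numbered segments of the hindbrain, and Irx3 takes part in neural plate patterning behind the forebrain. Argonaute proteins carry microRNAs to their target mRNAs, so the amount of an mRNA in Ago-RNA relative to total RNA, the enrichment E, is read as a measure of its association with these proteins.

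The probes for En1, En2, Pax8, Gbx2, Egr2 and Irx3 lie in the 3′ UTR of their gene, and those for Pax2 (3 probes) and Lmx1b (2 probes) lie in coding sequence. Of the 2 Pax5 probes, 1 lies in coding sequence and 1 crosses exons into the region annotated as coding or 3′ UTR depending on the transcript. On the mouse genome build mm9, En1 spans chr1:122498995-122505873 on the plus strand and En2 chr5:28492236-28500152 on the plus strand. Pax2 spans chr19:44830539-44912758 on the plus strand, Pax5 chr4:44544017-44724318 on the minus strand and Pax8 chr2:24276071-24331119 on the minus strand. Gbx2 spans chr1:91824537-91829865 and Lmx1b chr2:33416485-33496031, both on the minus strand. Egr2 spans chr10:66998223-67004936 on the plus strand and Irx3 chr8:94322428-94325553 on the minus strand. The probes of En1 and En2 and 1 probe of Lmx1b differed from the annotated transcript by 1 base edit, and no coding transcript of another gene came within 10 edits of any of the 13 probes.

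Values are log2 signals after background correction with an offset and quantile normalization over the 8 arrays, and a gene with several probes is given by their mean. A spot counted as above background when the scanner software marked it well above its local background, and a probe printed in several spots counted when at least 50% of them were so marked. With 1 array per condition there is no test, and the only error available is that of spots, taken from the 399 probes that were printed 10 times on each array. The SD of a difference between 2 arrays over such spots was 0.21 for total RNA signals below 8 on the log2 scale, 0.13 between 8 and 11 and 0.07 above 11. A difference was called when it reached 1 on the log2 scale, which is 2-fold, and the brighter array was above background. The offset of 50 draws dim signals together, so folds of dim genes are understated, and a level is never compared between different probes. The summed signal of a gene list adds the unlogged signals of its genes and is compared between stages only. The brightest genes of a list weigh most in its sum.

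Of the 9 genes, 7, 6, 6 and 7 were above background in total RNA in ES, ELA, NPC and NPC/Neu, where 65.6%, 60.6%, 65.5% and 64.3% of all genes were. In Ago-RNA 7, 6, 6 and 9 were, against 66.7%, 59.5%, 60.6% and 61.0%. Of the 9, 5 passed on all 4 total RNA arrays (En2, Gbx2, Lmx1b, Egr2 and Irx3) and En1 on none, and no probe of the 9 was saturated.

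All 8 arrays lay on the same slide, and between 53.4% and 61.2% of their spots were above background. Before normalization the upper quartile of mean signals was 3039 on the Ago-RNA array of ES cells, and it ranged from 1060 to 1774 on the other 7. The stage labels were set against their markers. From ES to NPC/Neu, 10 of 10 pluripotency genes were called lower in total RNA, the Oct4 gene Pou5f1 by 6.90. Of 14 general neural genes, 13 were called higher, the radial glia gene Fabp7 by 10.43. Of all genes, 11.3% were called in each direction. RNA was taken from whole cultures, so fewer cells of a type and less RNA per cell cannot be told apart.

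Matches to the seeds of 4 microRNAs known from stem cells or neural cells were looked for in the longest annotated 3′ UTR of each gene, because Ago-RNA is read as microRNA-bound mRNA. The mature sequences, from the RefSeq records of the later build GRCm38.p6, are given 5′ to 3′ with the seed, bases 2 to 8, in capitals.
mmu-miR-291a-3p: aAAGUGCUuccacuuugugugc
mmu-miR-9-5p: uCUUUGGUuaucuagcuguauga
mmu-let-7a-5p: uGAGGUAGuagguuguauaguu
mmu-miR-125b-5p: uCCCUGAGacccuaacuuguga
No pair of these microRNAs shares a seed. The complement of each seed was searched on the transcribed strand only, in the transcripts annotated on mm9. It was CTACCTC for let-7a, ACCAAAG for miR-9, AGCACTT for miR-291a and CTCAGGG for miR-125b.

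The matches given here do not cover all 9 genes, so a gene that is not mentioned is not thereby without a match. Among those given, the let-7a match was present once each in En1 and Lmx1b, the miR-9 match once in Pax8, and the miR-291a match once in Pax5. These are the stretches that hold them, 5′ to 3′ in the mRNA sense written as DNA, with the match in capitals.
En1, let-7a: caaacagccagaggcCTACCTCtccctg
Lmx1b, let-7a: gtcagcgagcagggcCTACCTCtaagag
Pax8, miR-9: ccgaagctggcacccACCAAAGgagaga
Pax5, miR-291a: gagccacgggtgccaAGCACTTacaaca
The let-7a match occurred in 8.81% of 19915 annotated 3′ UTRs, and in 13.9% and 21.3% of those about as long as the UTRs of En1 and Lmx1b. The miR-9 match occurred in 11.4% of all UTRs and 8.94% of those of about the length of Pax8. The miR-291a match occurred in 13.4% of all UTRs and 5.0% of those of about the length of Pax5. The miR-125b match, present in 12.6% of all UTRs, was found in none of the 9 genes. Pax2, Gbx2, Egr2 and Irx3 held no match to any of the 4 seeds. A match is a description of the sequence and no measurement of binding.

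En2, an engrailed homeobox gene that patterns the midbrain and the anterior hindbrain, was the boundary gene with the largest change in total RNA among the 7. Its total RNA signal was 10.11 in ES and 9.55 in ELA, then 11.94 in NPC and 14.20 in NPC/Neu, above background on every array. The signal was thus lowest in ELA and highest in NPC/Neu. The change was −0.56 from ES to ELA, 2.39 from ELA to NPC and 2.26 from NPC to NPC/Neu, and the last 2 were called. En2 is printed in 10 spots, and over spots at the same position of the arrays these changes had an SD of 0.11, 0.09 and 0.06. From ES to NPC/Neu the difference was 4.09, or 17.0-fold. In Ago-RNA the En2 signal was 10.71, 9.58, 12.22 and 14.70 in the same order. It was called lower from ES to ELA, by −1.13, whereas the total RNA difference over that step did not reach the call.

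En1, the paralog of En2 and the earlier of the pair to act in the midbrain, was not above background in total RNA at any stage. Its total RNA signal was 6.51, 6.23, 6.44 and 6.85 from ES to NPC/Neu, within the range of background. Its Ago-RNA signal was 6.56 in ES and 6.35 in ELA, both not above background, then 7.32 in NPC, where 9 of 10 spots were above background, and 7.60 in NPC/Neu, where 10 of 10 were. The Ago-RNA spots of NPC lay between 7.13 and 7.50 and those of ES between 6.33 and 6.69, with no overlap. Since the ES array gives only an upper limit, the Ago-RNA signal in NPC/Neu was at least 1.86-fold that in ES, with a measured difference of 1.04. The difference counts as called.

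**Figure D1:**
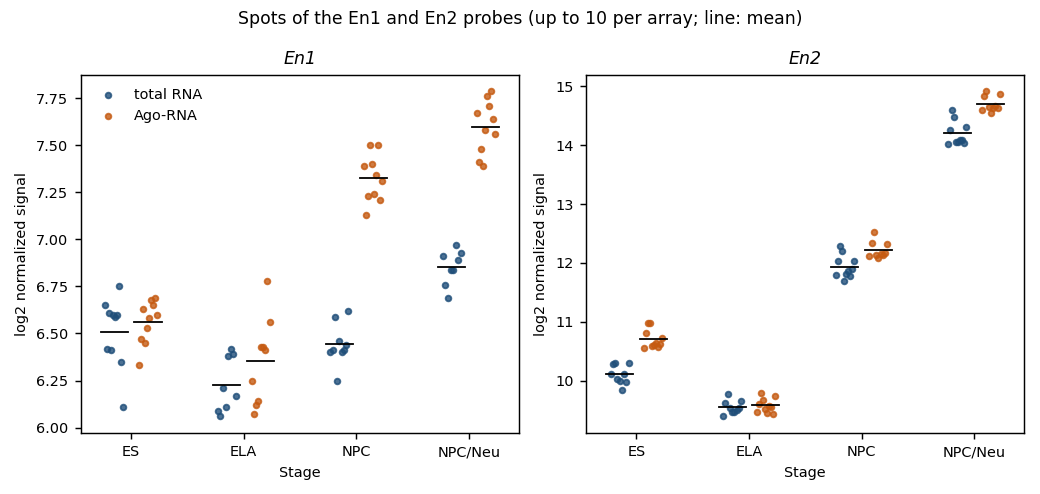
Log2 normalized signal (vertical axes, which differ in range between the panels) of each spot of the En1 probe (left) and of the En2 probe (right) at the 4 stages, in total RNA (blue) and Ago-RNA (orange), with black lines at the mean of the spots. Irregular spots are left out, and the spots of an array share 1 RNA sample, so their scatter is technical. En2 rises from 9.55 in ELA to 14.20 in NPC/Neu in total RNA, and En1 Ago-RNA lies above En1 total RNA in NPC and NPC/Neu.

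Of the 3 Pax genes of the boundary, none was called in total RNA in any of the 3 steps or between ES and NPC/Neu. Pax2, the earliest of them in the midbrain primordium, had a mean total RNA signal of 6.89, 6.82, 6.77 and 6.99 from ES to NPC/Neu. Just 1 of its 3 probes, the one at chr19:44909895-44909954, was above background on any array, with total RNA signals of 7.01, 7.04, 7.03 and 7.10, and it did not pass on either ELA array or on the NPC Ago-RNA array. Its 4 total RNA values lie within 0.10 of each other.

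Pax5, which follows Pax2 at the boundary and is also the B cell commitment factor, had a mean total RNA signal of 6.71, 6.67, 6.71 and 6.95. It was above background in NPC/Neu alone. There the probe in coding sequence gave 7.21 in total RNA and 7.38 in Ago-RNA, while the probe that crosses exons gave 6.69, not above background, in total RNA and 7.24 in Ago-RNA. The bound on the rise of Pax5 in total RNA from ES to NPC/Neu was 1.16-fold, below the call. On the log2 scale it was 0.21, no larger than the SD of repeated spots for signals below 8, so a rise was not established. The measured difference was 0.24, and with the scanner's processed signal it was 1.25 or 1.37 by scaling, past the call. Of 6 B cell genes, 1 was called higher and 2 lower from ES to NPC/Neu (11.3% of all genes in each direction). These were Ebf1 at 3.65, which neurons express as well, and Blnk at −5.00 and Cd79b at −2.98. The summed signal of the B cell genes was 5818 in ES and 4446 in NPC/Neu, with 6 and 4 of 6 above background. Most of it came from Blnk in ES (11.93) and from Ebf1 in NPC/Neu (11.75). The part of the B cell genes in the Pax5 signal was not tested.

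Pax8, the third of these paired box genes and also a kidney and thyroid factor, was above background at the first 2 stages only in total RNA. The total RNA signal was 7.77 in ES and 7.17 in ELA, and 6.61 in NPC and 6.79 in NPC/Neu, where it was not above background. It was therefore at least 2.04-fold higher in ES than in NPC and at least 1.98-fold higher in ES than in NPC/Neu. In Ago-RNA it was 8.16, 7.66, 6.62 and 7.22, where the NPC value was not above background. The Ago-RNA difference between ES and NPC was at least 2.22-fold. The measured total RNA difference from ES to NPC/Neu, −0.98, falls just short of the call and passes it with a smaller offset, at −1.27 with an offset of 16. Among 8 kidney genes, 2 were called higher and 3 lower from ES to NPC/Neu (11.3% of all genes in each direction). Those called higher were Lhx1 at 4.17 and Six2 at 1.01, and those called lower included Wt1 at −4.97 and Sall1 at −1.36. Their summed signal was between 70762 and 94775 at all stages, with 5 or 6 of 8 above background. Most of that sum came from Eya1 alone, at 16.22, 16.34, 16.08 and 16.05 in total RNA. The part of the kidney genes in the Pax8 signal was not tested.

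Gbx2, the homeobox gene that marks the hindbrain side of the boundary, was highest in ES cells and was the only one of the 9 genes called lower in total RNA between ES and NPC/Neu. Its total RNA signal was 11.14 in ES and 9.98 in ELA, then 9.93 in NPC and 9.39 in NPC/Neu, above background throughout. The step from ES to ELA was −1.16 and was called, and the later steps of −0.05 and −0.54 were not. Between ES and NPC/Neu the difference was −1.75, or 3.35-fold lower. In Ago-RNA the signal was 11.31, 9.66, 9.73 and 9.64, so that the ELA, NPC and NPC/Neu arrays lay close together. Gbx2 is also known as a gene of naive ES cells. The pluripotency genes moved over the same step, with 9 of 10 called lower from ES to ELA (3.12% of all genes were). Their summed signal was 250563 in ES and 71676 in ELA, then 5270 in NPC and 10024 in NPC/Neu, and their relation to the Gbx2 signal was not tested. Otx2, which marks the midbrain side and is also an epiblast gene, was at 15.53, 16.06, 15.91 and 15.97, with no step called.

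Lmx1b, a LIM homeobox gene needed at the boundary and in midbrain dopamine neurons, had no called change. Its 2 coding probes differed. The probe at chr2:33495011-33495070 gave total RNA signals of 7.53, 8.51, 7.90 and 8.10, highest in ELA. The probe at chr2:33420253-33420312, which has the base edit, gave 7.42, 7.47, 7.49 and 7.52, nearly level. The change from ES to ELA was thus 0.98 by the first probe and 0.05 by the second, and the mean of both went from 7.48 to 7.99. Lmx1a, its close relative and a gene of the midbrain floor, was at 7.00, 6.61, 13.61 and 11.20 and was called higher in NPC.

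Irx3, an Iroquois homeobox gene of the neural plate, showed the largest change of the 9 genes. Its total RNA signal was 7.11 in ES and 8.73 in ELA, then 12.38 in NPC and 12.71 in NPC/Neu, higher at each stage than at the one before. The changes were 1.62 from ES to ELA and 3.65 (12.5-fold) from ELA to NPC, both called, and 0.33 from NPC to NPC/Neu, not called. Between ES and NPC/Neu it was 5.59, or 48.3-fold, and this fold depends on how the dim ES signal is treated, with log2 values from 5.33 to 7.36 under other processing, and likewise from 1.55 to 3.06 for the step from ES to ELA. In Ago-RNA the signal was 7.96, 8.84, 12.69 and 13.18. The other Iroquois genes on the list of partners, Irx1, Irx2 and Irx5, had total RNA changes of 5.12, 4.13 and 3.02 from ELA to NPC, all past the call. Irx2 and Irx5 were chosen for mention here after their values were seen.

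Egr2, the zinc finger gene of hindbrain segments, was high at the 2 middle stages only. Its total RNA signal was 7.65 in ES and 10.81 in ELA, then 11.14 in NPC and 8.05 in NPC/Neu. The change was 3.16 (8.92-fold higher) from ES to ELA, 0.33 from ELA to NPC and −3.09 (8.53-fold lower) from NPC to NPC/Neu, so that the first and last stage differed by 0.40. Ago-RNA followed the same course at 7.69, 10.52, 11.38 and 8.67.

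Egr2 is also an immediate early gene, switched on by growth factors and serum, and a myelination gene of Schwann cells. Of 8 immediate early genes, 3 were called higher from ES to ELA (3.03% of all genes were) and 0 lower (3.12%). These 3, Fosb at 2.66, Fos at 2.28 and Egr1 at 1.49, were chosen for mention after their values were seen. The total RNA signal of Fosb was 7.91, 10.57, 9.26 and 8.18, and that of Fos 8.55, 10.83, 11.59 and 10.71. From ELA to NPC, 0 genes of the list were called higher (7.16% of all genes) and 4 lower (6.64%). From ES to NPC/Neu the list had 1 gene called higher, Fos, and 4 lower, where 11.3% of all genes were called in each direction. Arc at −3.30 and Ier2 at −1.86 fell furthest. The summed signal of the list was 30694 in ES and 44505 in ELA, then 17458 in NPC and 16996 in NPC/Neu, with 7 of 8 genes above background at each stage. Most of that sum came from Nr4a1 (14.04, 14.25, 12.48 and 12.53) and Egr1 (12.21, 13.7, 12.43 and 12.91). Of 7 neural crest and glia genes, 1 (Snai2, at 1.24) was called higher and 1 (Foxd3, at −5.31) lower over the same span. Their summed signal was 8246, 8582, 8054 and 2968 from ES to NPC/Neu, with 5 or 6 of 7 above background. The part of either list in the Egr2 signal was not tested.

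**Figure D2:**
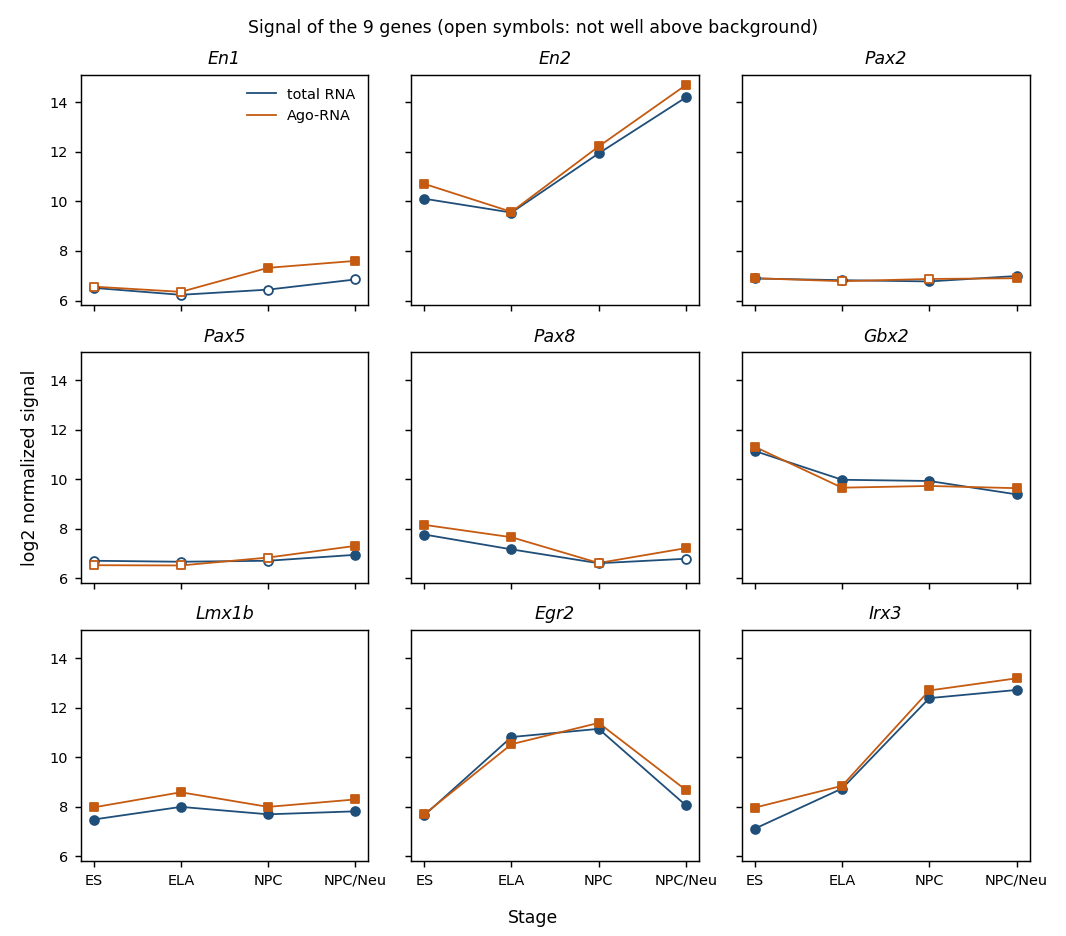
Log2 normalized signal (vertical axes, shared) of the 9 genes at the 4 stages (horizontal axes), 1 panel per gene, in total RNA (blue circles) and Ago-RNA (orange squares), with 1 array per point and open symbols where no probe of the gene was above background. En2 and Irx3 climb to 14.20 and 12.71 in total RNA, Egr2 is high in ELA and NPC only, Gbx2 falls from 11.14, and the other 5 genes stay below 9 on the log2 scale on all arrays.

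Counted over the 9 genes, 2 were called higher in total RNA from ES to ELA (Egr2 and Irx3; 3.03% of all genes were) and 1 lower (Gbx2; 3.12% of all genes). From ELA to NPC, 2 were called higher (En2 and Irx3), against 7.16% of all genes, and 0 lower, against 6.64%. From NPC to NPC/Neu, 1 was called higher (En2; 3.66% of all genes) and 1 lower (Egr2; 2.7% of all genes). Between the end points, 2 were called higher (En2 and Irx3; 11.3%) and 1 lower (Gbx2; 11.3%). The median change of the 9 genes was −0.08, 0.04, 0.22 and 0.33 in these comparisons, against 0.01, −0.01, −0.02 and −0.02 over all genes. Each of these called changes was at least 1.16 in size, against SDs of repeated spots of at most 0.21.

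At 2.5 on the log2 scale, a stricter threshold, Egr2 was called higher from ES to ELA (0.142% of all genes were) and Irx3 from ELA to NPC (1.15%). Egr2 was called lower from NPC to NPC/Neu (0.169%). En2 and Irx3 were called higher between the end points (2.96%). No other member passed it, where the shares of all genes were 0.336% lower from ES to ELA, 1.33% lower from ELA to NPC, 0.396% higher from NPC to NPC/Neu and 2.55% lower between the end points.

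**Figure D3:**
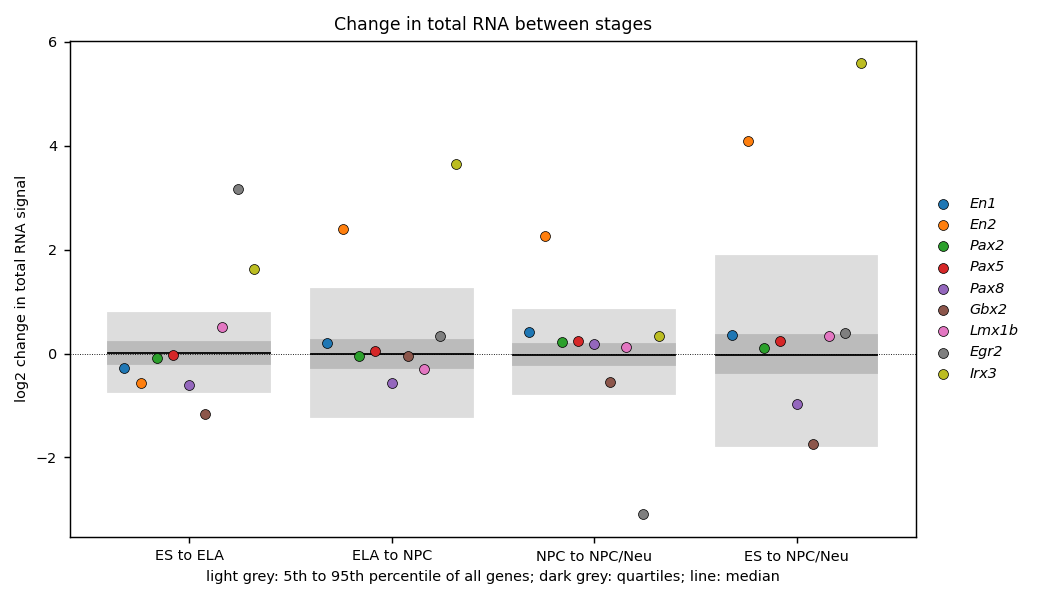
Log2 change in total RNA (vertical axis) of each of the 9 genes (colored points) for the 3 steps and for ES to NPC/Neu, over the 5th to 95th percentile (light grey), the quartiles (dark grey) and the median (line) of all genes. From ES to ELA, Egr2 and Irx3 stand above the light band and Gbx2 below it. En2 and Irx3 stand above it from ELA to NPC and between the end points. From NPC to NPC/Neu, En2 stands above it and Egr2 below it. En1, Pax2, Pax5, Pax8 and Lmx1b lie inside it in all 4 comparisons.

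In Ago-RNA, 1 of the 9 genes was called higher from ES to ELA (Egr2 at 2.82; 6.33% of all genes) and 2 lower (En2 and Gbx2; 6.11%). From ELA to NPC, 2 were called higher (En2 at 2.64 and Irx3 at 3.86; 7.57% of all genes) and 1 lower (Pax8 at −1.05, at least 1.57-fold; 6.96%). From NPC to NPC/Neu, 1 was called higher (En2 at 2.48; 5.29%) and 1 lower (Egr2 at −2.71; 5.09%). Between ES and NPC/Neu, 3 were called higher (En1, En2 at 3.99 and Irx3 at 5.22; 11.3%) and 1 lower (Gbx2 at −1.67; 11.8%).

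Most genes listed as signaling or acting with these factors at the boundary, though not all, were called higher from ELA to NPC. Of 15 such genes, 9 were called higher (7.16% of all genes were) and 1 lower (6.64%) in this step, with a median change of 1.82. Fgf17, Cnpy1, Otx2 (−0.16), Spry1 (−0.05) and Dusp6 (−0.08), also on the list, did not rise over it. The gene called lower was Spry2 (−1.29). Fgf17 was above background in ES alone, at 8.24, 6.75, 6.73 and 6.72 in total RNA from ES to NPC/Neu. Cnpy1 was at 7.01, 6.71, 6.50 and 7.27, above background in ES and NPC/Neu only. Wnt1, secreted on the midbrain side, was at 8.40, 8.55, 11.15 and 8.78 in total RNA from ES to NPC/Neu. Fgf8, secreted on the hindbrain side, was at 7.77, 7.49, 9.15 and 7.98. Both were thus highest in NPC, while En2 was highest in NPC/Neu. Between ES and NPC/Neu, 8 of the 15 were called higher (11.3% of all genes) and 1, Fgf17, lower (11.3%). The largest changes were those of the homeobox genes Meis2 (5.24) and Irx1 (4.97) and of the FGF antagonist Spry1 (3.18). Spry2 (−0.21) and Dusp6 (0.79) were not called between these end points.

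Genes of hindbrain segments, which act with Egr2, had 8 of 15 called higher and 0 lower from ELA to NPC. Their median change was 1.15, and over all genes 7.16% were called higher and 6.64% lower. Between ES and NPC/Neu, 7 of the 15 were called higher and 0 lower, led by the Hox genes Hoxb2 (3.43), Hoxa2 (3.11) and Hoxa3 (3.11). None of these 3 Hox genes was above background in total RNA in ES or ELA, so their folds are measured against background. Of 9 ventral midbrain genes, 6 were called higher and 0 lower between ES and NPC/Neu, where 11.3% of all genes were called in each direction. The 6 were led by the pioneer factor gene Foxa1 (4.36), Lmx1a (4.20) and Foxa2 (3.35). The other genes of that list, Th (0.77), Msx1 (0.04) and Pitx3 (−0.49), were not called. Forebrain genes were called higher in 13 of 17 cases and lower in 1, with Lhx2 at 6.99 and Fezf1 at 6.63 among those called higher. General neural genes were led by Fabp7, the Notch target Hes5 (7.22) and the proneural gene Neurog2 (6.75). The largest pluripotency changes were those of Pou5f1, Fgf4 (−6.29) and Zfp42 (−6.21). Of 9 mesoderm and endoderm genes, 2 were called higher (Foxa2, which is also on the ventral midbrain list, and T at 2.12) and 1 lower (Meox1 at −1.05). The cultures thus held RNA of genes from the forebrain, midbrain and hindbrain lists at the same stages, and which cells carried it was not measured.

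**Figure D4:**
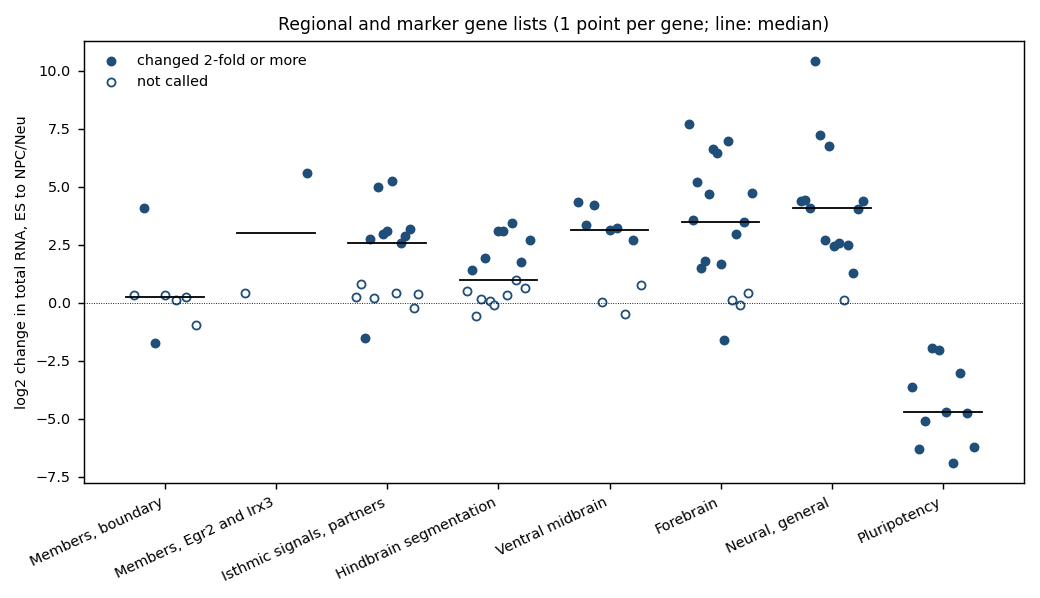
Log2 difference in total RNA between NPC/Neu and ES (vertical axis), 1 point per gene and 1 column per gene list, filled where the change was called and open where it was not, with a black line at the list's median. The boundary genes hold 1 gene called higher (En2) and 1 called lower (Gbx2), whereas 13 of 17 forebrain genes and 13 of 14 general neural genes were called higher and 10 of 10 pluripotency genes lower.

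The association of these mRNAs with Argonaute was compared between stages by E, the log2 Ago-RNA signal minus the log2 total RNA signal. By its gene mean, no member reached an E of 1 or of −1 at any stage. Over all genes, an E of 1 or more was called for 6.56%, 2.45%, 3.6% and 7.33% from ES to NPC/Neu, and an E of −1 or less for 7.34%, 2.15%, 3.91% and 7.78%. The median E of the 9 genes was 0.17, 0.03, 0.24 and 0.48, against 0.03, 0.00, 0.02 and 0.03 over all genes. In NPC/Neu, 8 of 9 had an E above 0, the exception being Pax2 at −0.09. Over all genes the quartiles of E there were −0.26 and 0.33, so the share above 0 was smaller than among the 9. En1 and Pax8 were not above background in total RNA in NPC/Neu, and Pax5 was so by 1 of its 2 probes. The SD of E over the spots of repeated probes was 0.19 for signals below 8, 0.10 from 8 to 11 and 0.06 above 11.

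En1 had the highest E of the 9 in NPC and in NPC/Neu. It was 0.88 in NPC and 0.74 in NPC/Neu, against a total RNA value that was not above background, which gives an enrichment of at least 1.49-fold and at least 1.68-fold. The NPC value was past 1 with smaller offsets and with the scanner's processed signal, at 1.26 to 2.92. The E of En2 was 0.60 in ES and 0.03 in ELA, then 0.28 in NPC and 0.51 in NPC/Neu, with an SD over spots at the same position of 0.13, 0.07, 0.05 and 0.05. The ELA value was the lowest of the 4, and separate normalization gave 0.25 there.

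The E of Irx3 was 0.85 in ES and 0.10 in ELA, then 0.32 in NPC and 0.48 in NPC/Neu. The ES value rests on a total RNA signal near background and was past 1 under 4 of the 8 other settings of the processing, at 1.04 to 1.88. Lmx1b had 0.75, 1.07, 0.48 and 0.72 by its probe at chr2:33495011-33495070, and by the mean of its probes its highest value was 0.59, in ELA. Pax8 had 0.39 in ES and 0.49 in ELA, where both of its signals were above background, and an enrichment of at least 1.35-fold in NPC/Neu.

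Egr2 had 0.04, −0.29, 0.24 and 0.63, and Gbx2 0.17, −0.32, −0.20 and 0.24, both lowest in ELA. For Egr2 this depended on the processing. Separate normalization gave −0.02 in ES and 0.10 in ELA, and scaling to the 75th percentile −0.49 and −0.28. No change of E between consecutive stages reached 1.5 in size for any of the 9 genes with the main processing. With the scanner's processed signal, changes of En1, Pax8 and Irx3, which rest on dim signals, did, at sizes up to 3.01. Over all genes, such a rise was called for 1.41%, 0.236% and 0.189% in the 3 steps, and such a fall for 0.855%, 0.59% and 0.716%. The E of Wnt1 was −0.13, −0.06, 1.36 and 0.32 from ES to NPC/Neu, and that of Fgf8 −0.54, 0.62, 1.07 and 0.09.

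**Figure D5:**
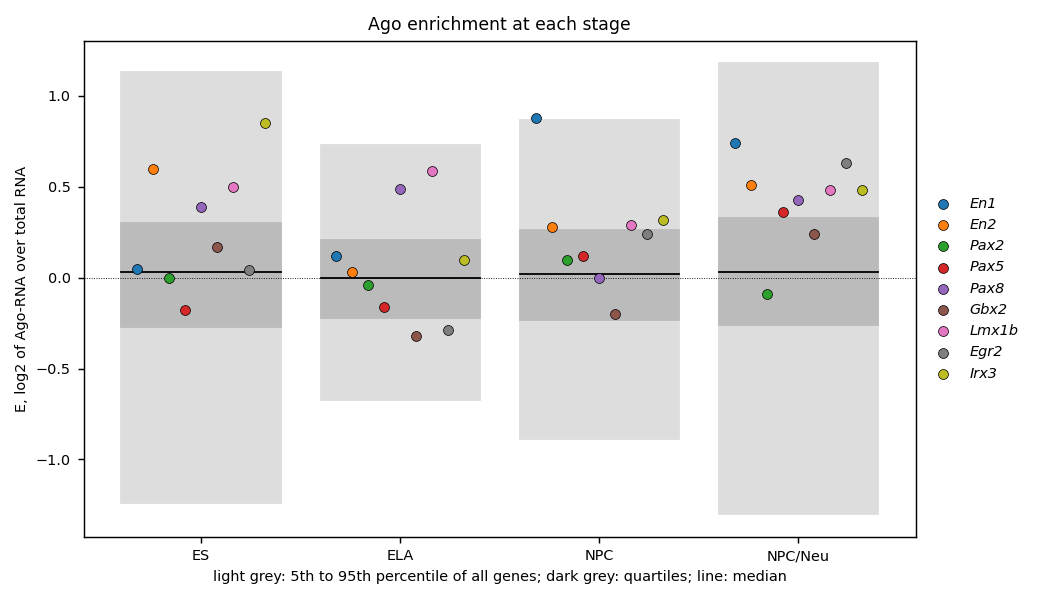
E, the log2 ratio of Ago-RNA over total RNA (vertical axis), of each of the 9 genes (colored points) at the 4 stages, over the 5th to 95th percentile (light grey), the quartiles (dark grey) and the median (line) of all genes. All points lie below 1, they spread to both sides of 0 in ELA, and 8 of 9 lie above 0 in NPC/Neu. There the median of all genes was 0.03, and En1 and Pax8 were not above background in total RNA.

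The genes whose signal over the 8 arrays was most like that of a member were found among 10690 genes that were above background in total RNA and ranged over 1 or more on the log2 scale. The arrays share pooled cultures at each stage, and the Pearson correlations are descriptions only. En2 was most like Sox21 (0.9982), a SoxB2 gene of neural progenitors, with total RNA signals of 9.02, 8.16, 10.65 and 12.81, and after it 4930488B01Rik and Afap1. Irx3 was most like Zfr2 (0.9979), Fzd1, a Wnt receptor gene, and Dmrt3. Egr2 was most like the tetraspanin gene Tspan33 (0.9916), at 11.36, 12.74, 12.77 and 11.60, and after it Gm5771 and 4930588N13Rik. Gbx2 was most like Cd55 (0.9913), Cdk5rap1 and Nlrc4. Pax8 was most like Slc24a6 (0.9856), a probe named by the transcript ENSMUST00000057750, and D030063E12. Among these 5 members the correlation was highest for En2 and Irx3, at 0.86, and lowest for Irx3 and Pax8, at −0.82.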

How the data were processed

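Total RNA and Ago-RNA were hybridized to 8 one-color Agilent mouse arrays, 1 per condition. The authors deposited spot intensity as written by the scanner software (Feature Extraction 10.7.3.1 in the file headers, 9.1 in the submitters' processing notes), not normalized between arrays. The labels state 50 ng of labeled RNA and the methods a larger amount. With limma 3.58.1 (R 4.3.3), background was removed from the mean intensity of all spots by normexp with an offset of 50. Control and irregular spots were dropped, the 8 arrays were quantile normalized on the log2 scale, and spots of a probe, then probes of a gene, were averaged. Quantile normalization removes any difference in overall RNA recovery. The rest was computed with Python 3.11.15, numpy 2.4.6 and pandas 2.3.3. No condition has a replicate, so no p-value is given and precision is limited by the number of arrays. A bound sets the brighter signal against the lowest signal above background on the dim array, or the dim signal itself where that is higher. Probes and 3′ UTRs were placed with GENCODE vM1 on mm9.

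The members and gene lists were chosen with earlier results of these data known. Named were all members, the 3 genes of each list with the largest called change from ES to NPC/Neu, Otx2, Wnt1 and Fgf8, and the 3 genes most like each member that ranged over 1 or more. Some genes and a sequence match that this rule takes in are not reported here. Irx2, Irx5, Fosb, Egr1, Six2 and Sall1 were added after their values were seen. So were Fgf17, Cnpy1, Spry2, Dusp6, Eya1, Nr4a1, Pitx3, Th and Msx1. Alternatives were offset 16, offset 0, the scanner's processed intensity (quantile normalized, or scaled by each array's 75th percentile), separate normalization of Ago-RNA and total RNA, only probes above background on every array compared, the brightest probe, and irregular spots kept. The calling rule was tested on simulated data.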

Additional observations from a re-analysis of the deposited data

Results flagged for a closer look

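The enrichment of Gbx2 in Ago-RNA lay on opposite sides of 0 at different stages by more than the scatter of repeated spots, at 0.17 in ES and 0.24 in NPC/Neu against −0.32 in ELA and −0.20 in NPC. Egr2 did the same, with −0.29 in ELA against 0.24 in NPC and 0.63 in NPC/Neu. With 1 array per condition the difference was not tested. With separate normalization of the Ago-RNA arrays, Egr2 in ELA was at 0.10 and Gbx2 in NPC at 0.07, so those signs depend on the scaling. Gbx2 in ELA was then at −0.06, within the SD of E over repeated spots of 0.10. No negative value of either gene beyond that scatter was left.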

How the results depend on the processing

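The 10 called changes in total RNA kept their sign and their call under all 8 alternatives, in 80 of 80 comparisons. No paired analysis was possible because each condition has 1 array. Counts of members moved as follows. Genes called lower from ES to ELA became 2 with the processed signal quantile normalized. Lower from ELA to NPC became 1 with the processed signal under either scaling, and higher from NPC to NPC/Neu became 2 with scaling to the 75th percentile. Higher from ES to NPC/Neu became 3, through Pax5, with the processed signal under either scaling (1.25 and 1.37). Lower from ES to NPC/Neu became 2, through Pax8, with offsets of 16 (−1.27) and 0 (−1.48), the processed signal under either scaling (−2.82 and −2.73) and separate normalization (−1.01). Genes with an E of 1 or more became 1 in ES (Irx3) and 1 in NPC (En1) with both offsets and both scalings of the processed signal. They became 1 in ELA (Lmx1b) with the brightest probe, and in NPC/Neu 1 with offset 0, 3 with the processed signal quantile normalized (En1, Pax5 and Pax8) and 1 with the 75th percentile, where Pax2 also reached −1.13. Changes of E passed 1.5 in size with the processed signal only, quantile normalized or scaled to the 75th percentile. They were −1.79 for Irx3 from ES to ELA (quantile), 2.88 and 3.01 for En1 and −1.54 (quantile) for Pax8 from ELA to NPC, and −1.54 (75th percentile) for En1 and 2.36 and 1.79 for Pax8 from NPC to NPC/Neu. The cause was not tested. Scaling to the 75th percentile moved the median E of all genes to −0.57, −0.31, −0.01 and −0.35 from ES to NPC/Neu, and the median change in total RNA to −0.41 from ELA to NPC, 0.15 and 0.13 in the other steps. Signals near background limit En1, Pax2, Pax5 and Pax8, for which bounds are given.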
